A study of Homo sapiens with 26 samples.

Results

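The exons described here are all rows of the authors' list of small RNA targets of EZH2 in U87MG cells, 669 of the 3639 rows in the 3 such lists of the study. No row was left out, and the gene symbol of a row is the text that precedes the exon identifier in its name field. U87MG and T98G are human glioblastoma lines and K562 is a human chronic myeloid leukaemia line. The study's title concerns artifacts that arise when a reverse transcription primer anneals at the wrong place.

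The U87MG list rests on 6 small RNA libraries, with 2 from EZH2 immunoprecipitates (an Active Motif antibody), 2 from IgG2a control immunoprecipitates (Sigma Aldrich) and 2 from input lysate without antibody. The cells were untreated and grew in EMEM with 10% FBS. They were permeabilised with digitonin, dounced, lysed in a detergent buffer and mildly sonicated, and no crosslinking step is given for these libraries. NEB's small RNA kit was used, and library products of 20 to 50 bases were cut from a gel. The labels do not say whether the 2 libraries of a kind came from separate cultures. Polyadenylated RNA of the same line, treated with siRNA against EZH2 (siEZH2) or against GFP (siGFP) with 2 libraries each, gave a separate table of changed genes. The T98G list rests on 6 libraries of the same kinds and the K562 list on 3.

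The list names exons and holds no read count, score per library or p-value. The depth behind each call, and the spread between the 2 libraries of a kind, are therefore unknown. Ranges in parentheses after a percentage are 95% Wilson intervals, which cover counting error over exons or genes only, and neighbouring exons are not independent. Cell identity could be looked at only through the names on the list. Of 12 glioma and astrocyte context genes, TNC, which encodes the matrix protein tenascin-C, was the only one with a called exon in U87MG, and 4 had one in T98G and 1 in K562. GFAP, NES, SOX2, OLIG2 and EGFR were among those without one, and a list of called exons says nothing of their expression.

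EZH2 is the catalytic subunit of Polycomb repressive complex PRC2, which methylates a lysine in the tail of histone H3 and is linked to gene silencing. PRC2 has been reported to bind many RNAs in cells, and RNA immunoprecipitation, which sequences the RNA that comes down with a protein, is one of the methods used. In glioblastoma, EZH2 is studied for its role in keeping cells undifferentiated and proliferating. An exon on the list is a stretch of a mature transcript in which small RNA reads were called, and the list does not say where within the exon they lay.

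Of the 669 exons, 27 hold the 7 bases AGATCGG on the RNA strand, and 15 of these 27 are wholly coding. These 7 bases are the longest stretch that was searched of the start of the 3′ adapter that such kits use, a sequence taken from general knowledge and not from the labels. The 7 printed here are short, wholly coding examples from 7 genes. They are shown because the same letters recur in unrelated genes at no fixed place within the exon. All are given 5′ to 3′ on the RNA strand of GRCh37, with the 7 bases in capitals and the rest in lower case. They are exon 2 of DOCK1, an activator of the GTPase Rac (chr10:128768966-128769049, plus strand), exon 11 of HTT, the huntingtin gene (chr4:3127276-3127356, plus strand), and exon 3 of ATM, a DNA damage kinase (chr11:108098503-108098615, plus strand). The next are exon 8 of MTMR14, a phosphoinositide phosphatase (chr3:9719001-9719071, plus strand), exon 40 of KIAA0368, a proteasome adaptor now named ECPAS (chr9:114135595-114135686, minus strand), and exon 29 of DST, a cytoskeletal linker (chr6:56496681-56496838, minus strand). The last is exon 10 of DENND5A, a regulator of Rab GTPases (chr11:9191403-9191496, minus strand).
DOCK1: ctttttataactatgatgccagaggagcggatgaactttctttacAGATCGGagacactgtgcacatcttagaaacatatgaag
HTT: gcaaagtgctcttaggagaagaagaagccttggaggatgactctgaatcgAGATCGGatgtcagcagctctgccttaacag
ATM: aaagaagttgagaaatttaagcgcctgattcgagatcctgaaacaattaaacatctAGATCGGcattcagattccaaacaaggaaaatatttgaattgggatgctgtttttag
MTMR14: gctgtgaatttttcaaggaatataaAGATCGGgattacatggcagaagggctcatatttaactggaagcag
KIAA0368: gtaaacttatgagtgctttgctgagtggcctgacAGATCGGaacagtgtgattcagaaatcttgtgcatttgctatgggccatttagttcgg
DST: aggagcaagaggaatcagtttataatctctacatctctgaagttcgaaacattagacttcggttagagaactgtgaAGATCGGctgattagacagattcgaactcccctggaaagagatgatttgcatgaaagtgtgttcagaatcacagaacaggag
DENND5A: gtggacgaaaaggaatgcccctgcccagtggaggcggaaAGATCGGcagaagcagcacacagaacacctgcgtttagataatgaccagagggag
The MTMR14 exon was called in all 3 lines. The exons of DOCK1, HTT, ATM, KIAA0368 and DST were called in U87MG and T98G. That of DENND5A was on the U87MG list alone.

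The called exons came from large genes with many exons. The 669 rows carried 596 gene symbols, and 548 annotated protein-coding genes held at least 1 called exon, which is 2.73% of the 20090 compared. The same share was 8.91% for the T98G list and 1.71% for the K562 list. U87MG host genes had a median of 22 exons in their canonical transcript (quartiles 13.75 and 31.25), against 8 over all protein-coding genes, 16 for T98G hosts and 15 for K562 hosts. Their median span in the genome was 78.1 kb against 22.7 kb, and their median exonic length 5.7 kb against 2.87 kb. Only 0.675% of genes with 1 to 10 exons were hosts. That share was 3.34% at 11 to 20 exons, 11.2% at 21 to 40, 22.1% at 41 to 60 and 24.3% at 61 or more.

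A gene with more exons offers more exons to be called, so the calls were also counted per annotated exon. There were 1.34 called exons per 1000 annotated exons in genes with 1 to 10 exons, and 2.51, 4.63, 6.18 and 6.79 in the 4 larger classes. The rate therefore rose with gene size over and above the number of exons offered. Expression was not measured in the list, and its part in this order was not tested.

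**Figure D1:**
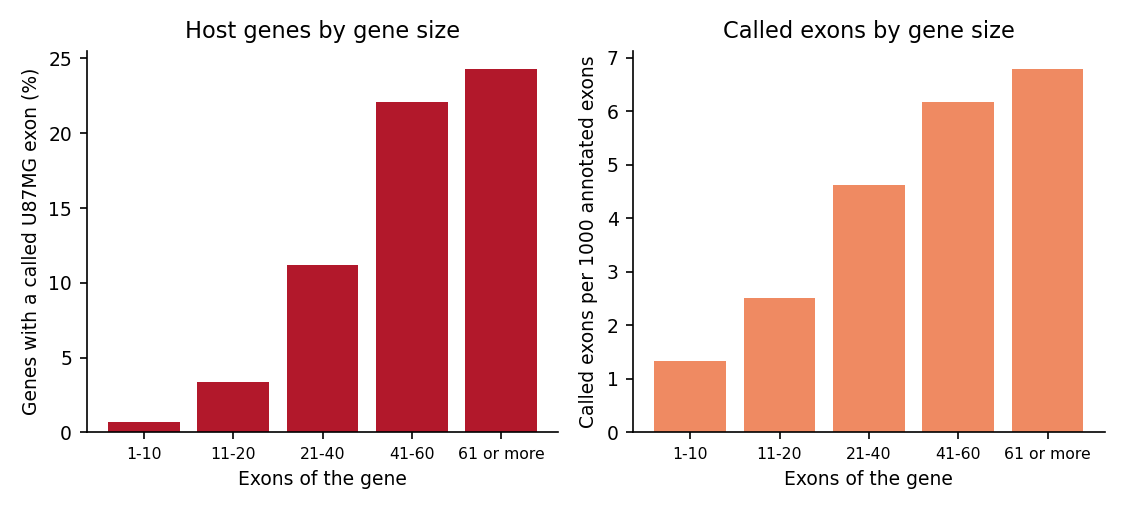
Bars give, for protein-coding genes grouped by the number of exons in the canonical transcript (horizontal axis), the percentage of genes with a called U87MG exon (left) and the called exons per 1000 annotated exons (right). Both climb from the smallest class (0.675% and 1.34) to the class with 61 or more exons (24.3% and 6.79); no error bars are drawn because the list has no values for single libraries.

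Most host genes had a single called exon. A single exon was called in 527 of the 596 symbols, 2 exons in 54, 3 in 12, and 4, 5 and 8 exons in 1 gene each. The 69 genes with several exons account for 161 rows. Counted over annotated protein-coding genes, the 70 hosts with several called exons had a median of 36.5 annotated exons and the 478 with 1 called exon a median of 21. The 15 genes with 3 or more account for 53 exons with a median width of 156 bp. Of these 53 exons, 52 were wholly coding, 39 were also called in T98G and 8 in K562.

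MACF1 had the most, with 8 called exons, and its canonical transcript has 101 exons. MACF1 is a giant spectraplakin that links actin filaments to microtubules. Its called exons were numbers 26, 49, 59, 73, 79, 81, 92 and 94, spread over 154 kb of chromosome 1, the first at chr1:39776503-39776672. In T98G 7 of the 8 were also called, all but exon 59, and in K562 exons 49 and 73 were. The first 7 were wholly coding and 123 to 318 bp wide. The eighth, numbered 94 by its overlap with that canonical exon, was the last exon of its own transcript. It was 1298 bp wide with 75 coding bases, and it holds the adapter-like motif.

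MYCBP2, a very large ubiquitin ligase that shapes axons, had 5 of its 83 exons, numbers 17, 47, 67, 68 and 78, over 185 kb of chromosome 13. T98G shared 4 of them, all but exon 67. UBR4, a ubiquitin ligase that recognises destabilising N-terminal residues, had exons 64, 75, 95 and 99 of 106, over 38.8 kb of chromosome 1. All 4 UBR4 exons were called in T98G, and exons 64 and 95 in K562.

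The genes with 3 called exons fall into a few roles. Of the cytoskeletal and motor genes, DST had exons 29, 78 and 92 of 104. DYNC1H1, the heavy chain of cytoplasmic dynein, had exons 49, 57 and 60 of 78. DYNC2H1, the heavy chain of the dynein that moves cargo inside cilia, had exons 23, 31 and 61 of 89. All 9 exons of these 3 genes were also called in T98G. C5orf42, a ciliary gene now named CPLANE1, had exons 13, 14 and 35 of 53, and the first 2 were shared with T98G.

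Protein turnover was represented by HUWE1, a HECT-type ubiquitin ligase with exons 43, 55 and 58 of 85, and by RNF213, a ubiquitin ligase with an ATPase module, with exons 21, 22 and 61 of 68. KIAA0368 had exons 13, 40 and 43 of 50. In each of these 3 genes the first 2 called exons were shared with T98G and the third was not. MDN1, an ATPase of ribosome assembly, had exons 62, 69 and 93 of 102, and exons 62 and 93 were shared with T98G.

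In the other genes named here the sharing varied. FAM178A, a genome maintenance factor now named SLF2, had exons 5, 7 and 8 of 20, and exons 5 and 8 were called in all 3 lines. NUP188, a nuclear pore scaffold protein, had 3 called exons of 44, of which 1 was shared with T98G. DOCK5, a relative of DOCK1, had exons 2, 10 and 17 of 52, and exon 2 was shared with T98G.

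**Figure D2:**
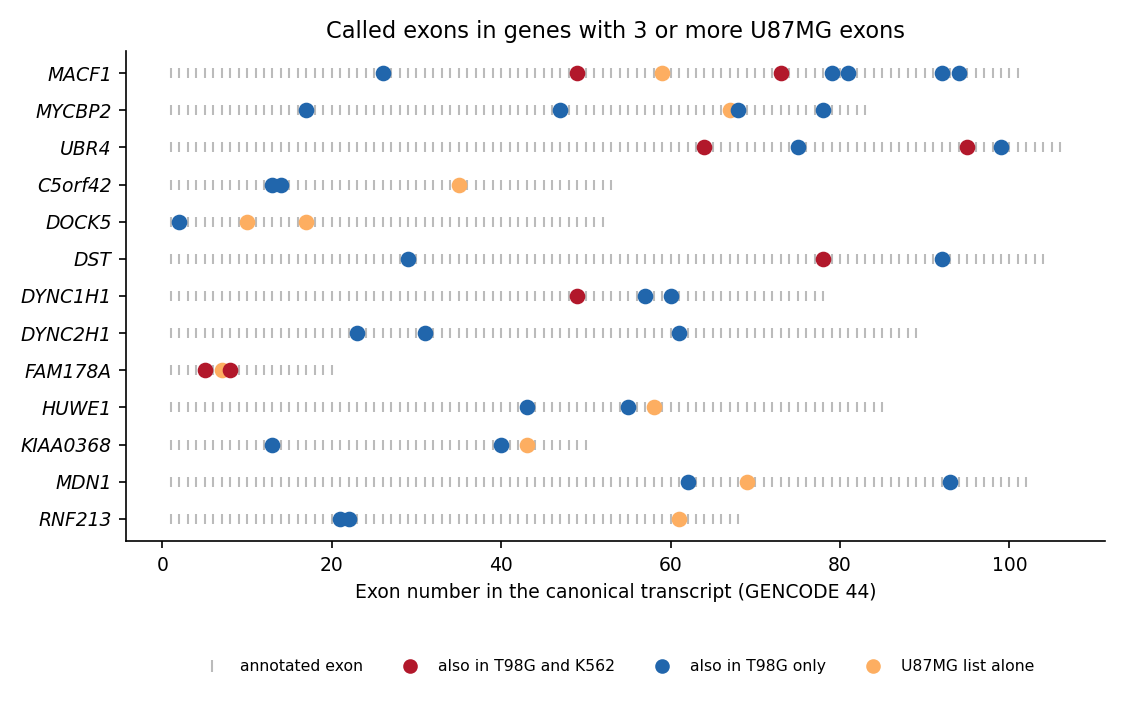
Each row is 1 of 13 of the 15 genes with 3 or more called U87MG exons; grey ticks mark the exons of the canonical transcript by number (horizontal axis) and dots mark the called exons, coloured by the other lists that hold them. Called exons are scattered along most genes, MACF1 has 8 dots from exon 26 to exon 94, and adjacent dots appear in MYCBP2, C5orf42, FAM178A and RNF213.

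Called exons of a gene were mostly not consecutive, in hosts with several called exons whose median was 36.5 annotated exons. No count expected from random placement was made, so this describes the list only. Of 92 pairs of neighbouring called exons within a gene, 9 were consecutive exons. Among them were exons 67 and 68 of MYCBP2, 13 and 14 of C5orf42, 7 and 8 of FAM178A and 21 and 22 of RNF213. Further pairs were 11 and 12 of GFPT1, 16 and 17 of MICAL2, 7 and 8 of NASP and 10 and 11 of THADA. The NASP row numbered 7 was 3949 bp wide and overlapped that canonical exon without equalling it. GFPT1 encodes the first enzyme of hexosamine synthesis, MICAL2 an enzyme that oxidises actin, NASP a histone chaperone and THADA a protein associated with thyroid adenoma.

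In 16 of the 69 genes with several exons, at least 1 U87MG exon was called in all 3 lines. Besides MACF1, UBR4, DST, DYNC1H1 and FAM178A, they were ATM, GFPT1, MICAL2, NASP, NKTR, NUP98, NXF1, PANK3, SF3B1, USP24 and ZC3H7B. NXF1 is the main mRNA export receptor, NUP98 a nucleoporin, SF3B1 a core spliceosome subunit and PANK3 a kinase of coenzyme A synthesis. PANK3 had 2 called exons among only 7, the fewest exons of these 16 genes. Every called exon was shared with T98G in 29 of the 69 genes. In 10 genes none was, namely CCDC93, CEP250, CIT, CSMD2, FAM208A, MAP4K3, SECISBP2, ULK4, WDR59 and ZZEF1. T98G had other called exons in 5 of these 10, CIT, MAP4K3, ULK4, WDR59 and ZZEF1, for example 3 in MAP4K3, a kinase upstream of mTOR.

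Within the host genes, called exons lay along the whole transcript. With each gene split into 5 equal stretches from its first to its last exon, 15.2% of 637 called exons were in the first stretch, then 20.9%, 22.8%, 18.2% and 22.9%. All annotated exons of the same genes were placed at 20.9%, 19.1%, 20.1%, 18.4% and 21.6%. The first stretch was the only one in which the called share was more than 3 percentage points lower.

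Most rows were internal coding exons. Both ends of 606 rows (90.6%, 88.1 to 92.6) equalled an exon of GENCODE release 44 on the same strand. A place in a transcript could be given to 603 rows. Of these, 476 were internal (78.9%, 75.5 to 82.0), 75 last (12.4%), 40 first (6.63%) and 12 the only exon of their gene. In canonical transcripts of all protein-coding genes the shares were 81.4% internal and 9.02% each for first and last. These shares are not like for like, because the transcript that gave a row its place need not be the canonical one. For example, the ATR row counted as first overlaps canonical exon 31 of 47, and the BIRC6 row counted as last overlaps exon 7 of 74. At least 1 base was coding in 623 rows (93.1%, 91.0 to 94.8), every base in 444 (66.4%, 62.7 to 69.8) and none in 46 (6.88%). Among wholly coding internal exons, 188 of 442 (42.5%, 38.0 to 47.2) had a width divisible by 3, so that skipping them would keep the reading frame, against 40.8% of annotated ones.

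The called exons were wider than annotated exons. Exons under 100 bp made up 18.1% of the list and 28.9% of the annotation, and exons from 400 to under 1000 bp 12.7% and 5.28%. Their median width was 166 bp (95% interval 156 to 174), with quartiles of 117 and 359 bp and a range of 36 to 8624 bp. The T98G and K562 lists had medians of 187 and 188 bp, and annotated exons of protein-coding genes 133 bp. Internal U87MG exons had a median of 139 bp, against 123 bp for annotated internal exons. Within the host genes themselves, canonical internal exons that overlap a row had a median of 135.5 bp and those not called 126 bp, and the median GC content was 45.4% and 46.1%. Rows that were the first exon of their transcript had a median of 377 bp, against 174 bp for canonical first exons. Rows that were the last exon of theirs had a median of 675 bp, against 1398 bp for canonical last exons. Some of these rows lie in the middle of the canonical transcript, so both contrasts compare unlike exons.

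The narrow and the wide rows differed in kind. Of the 121 exons under 100 bp, 109 were wholly coding (90.1%). The 69 exons of 1000 bp or more made up 10.3% of the rows and 56.2% of the bases, and 3 of the 69 were wholly coding. Of the 48 wide exons with a place, 38 were last or only exons. The widest rows were in PPARA, a nuclear receptor of fatty acid metabolism (8624 bp), CDS2, an enzyme of phospholipid synthesis (7786 bp), C14orf132 (7570 bp), a row named AL589642.1 that lies in TAF1L (6216 bp) and a processed pseudogene on chromosome 6 (5914 bp). All 5 were also called in T98G. The narrowest were exons of BAI2, an adhesion receptor (36 bp), EPB41L2, a membrane skeleton protein (36 bp), FBXO7, a ubiquitin ligase subunit (38 bp), KIAA1715, an endoplasmic reticulum protein now named LNPK (43 bp), and ITGAV, the integrin subunit alpha V (46 bp). FBXO7 and KIAA1715 were shared with T98G and the other 3 were on the U87MG list alone.

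**Figure D3:**
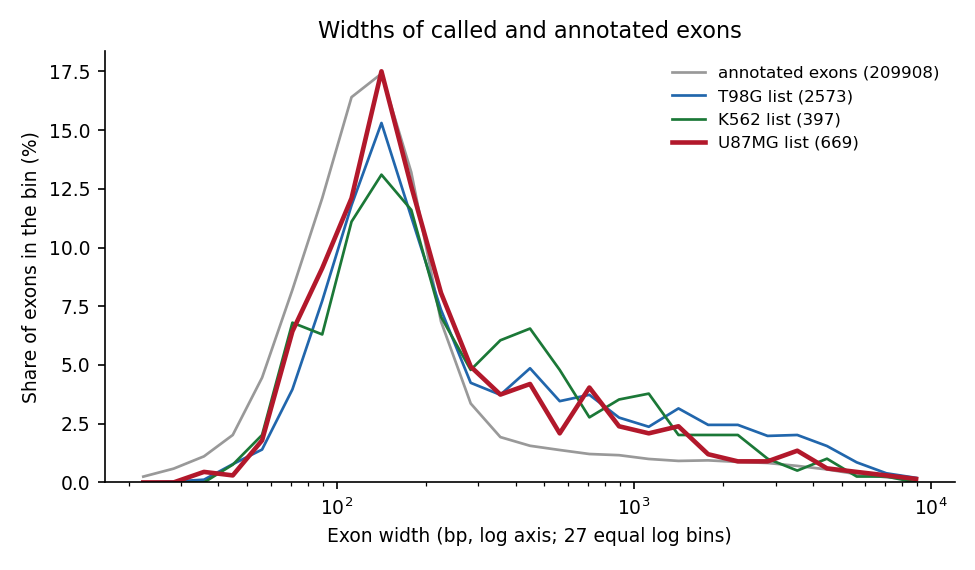
Lines give the percentage of exons (vertical axis) in bins of equal log width for the U87MG list (669 exons), the T98G list (2573), the K562 list (397) and annotated canonical exons (209908); the horizontal axis is exon width in bp on a log scale. All curves peak between 100 and 200 bp, and the U87MG curve lies under the annotation below 100 bp and above it between 400 and 1000 bp, with medians of 166 bp for U87MG and 133 bp for the annotation.

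A small share of rows lay outside protein-coding genes. The 639 rows in protein-coding genes (95.5%, 93.7 to 96.8) left 30, of which 23 were in pseudogenes, 6 in long non-coding RNA genes and 1 in a microRNA gene, MIR1267. Where a row overlapped several genes, a gene of its own symbol was preferred, and then a protein-coding gene. The PKD1P5 row, for example, counts as protein-coding although it has no coding base. Of the 23 pseudogene rows, 20 were also called in T98G. ZFAS1, a host of small nucleolar RNAs, was 1 of the long non-coding genes. Some rows share sequence. Over the whole list, 49 rows had an identical run of at least 25 bases in common with another row, including short runs between wide exons of unrelated genes. The rows of AC138969.4 and PKD1P5 were identical over all 238 bp, and NPIPB3 and the SMG1 pseudogene rows RP11-345J4.8 and RP11-347C12.2 over all 148 bp. FAM21A and FAM21B were identical over 72 bp, and PMS2 and PMS2P9 shared a run of 92 bp. Within these long runs reads cannot be told apart, so the assignment of the rows just named to 1 gene is uncertain.

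Of the 669 exons, 435 (65.0%) were also on the T98G list, which is 16.9% of the 2573 T98G rows. With K562, 79 exons were shared, 11.8% of the U87MG and 19.9% of the K562 rows. All shared exons had identical ends in both lists. There were 78 exons in all 3 lists and 233 (34.8%, 31.3 to 38.5) on the U87MG list alone, while 1 was shared with K562 and not T98G. By symbol, 444 of 596 U87MG host genes were T98G hosts (74.5%, and 21.7% of the T98G symbols). Exons of genes with several calls were shared with T98G in 67.1% of 161 rows (59.5 to 73.9) and those of genes with a single call in 64.4% of 508 (60.1 to 68.4), and these intervals overlap. The share was 57.0% (48.1 to 65.5) for exons under 100 bp and 71.0% (59.4 to 80.4) for those of 1000 bp or more. First exons were shared least often in value, at 19 of 40 (47.5%, 32.9 to 62.5), against 306 of 476 internal exons (64.3%, 59.9 to 68.5). Unshared exons had a median width of 156 bp and those shared with T98G alone 171 bp.

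The 6 bases AGATCG were next searched in every exon on both strands. A match is a description of the letters and not of a priming or binding site. The motif was present on the RNA strand in 72 exons (10.8%, 8.63 to 13.3) and on the opposite strand in 7 (1.05%, 0.508 to 2.14). At 7 bases, AGATCGG, the numbers were 27 and 1. At 5 bases, AGATC, they were 274 and 178, and at 4 bases, AGAT, 537 and 372. In ratio, the strands differed more the longer the match, while the difference in percentage points fell. Annotated exons also held AGATCG more often on the RNA strand than on the opposite one. Their shares were 1.02% against 0.427% at 36 to 99 bp and 3.33% against 1.55% at 200 to 399 bp.

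Wider exons hold any motif more often, so the share was read within width classes. In exons of 36 to 99 bp it was 9.92% (5.76 to 16.5) against 1.02% of annotated exons of that width. At 100 to 149 bp it was 6.51% against 1.61%, and at 150 to 199 bp 7.96% against 2.42%. At 200 to 399 bp it was 9.82% against 3.33%, at 400 to 999 bp 12.9% against 5.71%, and at 1000 bp or more 26.1% (17.2 to 37.5) against 16.2%. In this widest class 9 of the 18 motif exons share a run with another row, so its interval is too narrow, and the opposite strand of annotated exons holds the motif in 13.4%. The list was above the annotation in each of the 6 classes, and its 95% intervals excluded the annotated value in each. Within the host genes, among canonical exons under 400 bp, 50 of the 574 that overlap a row of the list held the motif (8.71%, 6.67 to 11.3) and 196 of the 12401 that do not (1.58%, 1.38 to 1.82).

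Exons with and without the motif were shared at rates whose intervals overlap. Of the 72, 50 were also called in T98G (69.4%, 58.0 to 78.9), against 385 of the 597 without it (64.5%, 60.6 to 68.2), and 9 were called in K562. Wholly coding exons made up 39 of the 72. The 27 exons with 7 bases included those in ADAM23, AGAP1, AL589642.1, ATM, B4GALT6, CAD, DENND5A, DOCK1, DOCK5, DST, GREB1L, HLTF, HTT, KDM3A, KIAA0368, LRP1, MACF1, MTMR14, NOL11, PARD3B, PPP4R1, TRAF7, U47924.28 and ZNF710, and in that same pseudogene. They include adhesion and cell surface genes (ADAM23, LRP1), a pyrimidine synthesis enzyme (CAD), a ubiquitin ligase (TRAF7), a polarity gene (PARD3B) and a ribosome biogenesis gene (NOL11).

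The U87MG list gives no position of reads within an exon, but the T98G list gives a distance from which the middle of its peak can be placed. This was possible for 424 of the 435 shared exons. AGAT began 11 to 15 bases after the T98G peak middle in 130 of them (30.7%, 26.5 to 35.2), against 14 (3.3%) in a window 20 bases further on. In T98G exons not called in U87MG the shares were 24.8% (22.9 to 26.7) and 3.43%. For AGATCG, 25 of 424 windows held it (5.9%, 4.03 to 8.56) and 0 of 424 did in the further window, where a count of 0 allows a share of up to 0.708% when taken as 3 counts and 0.898% by the Wilson interval. The window was known from earlier work on these lists, so these shares are a description.

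Seen from the motif, 45 motif exons had a usable T98G peak, and in 25 of them the motif began 11 to 15 bases after it (55.6%, 41.2 to 69.1). The start was 11 bases after the peak in 12 exons, 12 in 7, 13 in 4 and 15 in 2. Among exons under 400 bp, 20 of 29 fell in the window. Of the exons printed above, DOCK1, HTT and DST had the motif 11 bases after the T98G peak, and ATM and MTMR14 15 bases after it. In KIAA0368 it began 2 bases after. The exon of DENND5A, which was not called in T98G, has no peak position. Whether reads in U87MG stopped at the motif was not tested.

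**Figure D4:**
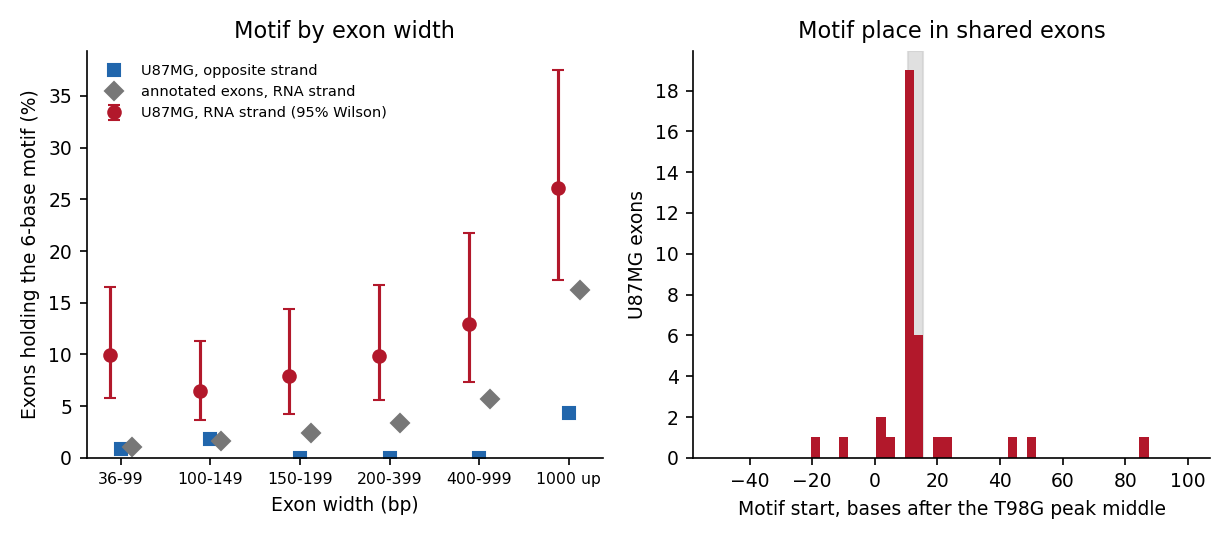
Left, percentage of exons holding the 6-base motif (vertical axis) by exon width class for U87MG exons on the RNA strand (circles, bars are 95% Wilson intervals), on the opposite strand (squares) and for annotated exons on the RNA strand (diamonds). Right, number of U87MG exons by the start of the motif in bases after the T98G peak middle, with the window of 11 to 15 bases shaded; 10 of 45 exons lie outside the plotted range of -50 to 100, and the bars pile up at the shaded window.

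DOCK1 and DOCK5 gave a pair of related exons. In both genes, exon 2 of 52 was called, it was 84 bp wide, the 7-base motif began at base 46 of the exon, and this was 11 bases after the T98G peak. The exons were identical at 55 of 84 positions (65.5%), and their longest identical run was 8 bases.

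The functions of the host genes were described by families defined from gene symbols, beside the 2.73% of all protein-coding genes that were hosts. Hosts made up 11.2% of genes with 21 to 40 exons and 22.1% of those with 41 to 60, so family medians of exon number are given. Several families of the cytoskeleton held hosts. Of 16 spectrin and plakin genes, with a median of 54.5 exons, 4 were hosts (25%): MACF1, DST and the spectrins SPTAN1 and SPTBN1. Of 39 kinesins, microtubule motors with a median of 21 exons, 6 were hosts (15.4%), namely KIF14, KIF16B, KIF21A, KIF21B, KIF5A and KIF5B. The dyneins had 3 hosts of 40 (7.5%, median 17 exons). The centrosomal CEP proteins had 5 of 38 (13.2%, median 17.5 exons), including CEP250, which ties the centrioles together.

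Some families of large genes had few hosts. The 39 myosins, actin motors with a median of 40 exons, had 0 hosts in U87MG and 5 in T98G. The 12 laminins, matrix proteins with a median of 34 exons, had 0 in U87MG and 1 in T98G. The 44 collagens, with a median of 48 exons, had 3 (6.82%), which were COL15A1, COL1A1 and COL7A1. These counts are small. The list holds no expression levels of these genes, and the part of expression in the counts was not tested.

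Nuclear functions were also present. Nucleoporins had 4 hosts of 23 (17.4%, median 22 exons): NUP188, NUP98, NUP205 and NUP37. Chromatin regulators had 10 of 95 (10.5%, median 21 exons), with the histone methyltransferases KMT2B, KMT2D and KMT2E and the demethylases KDM3A, KDM3B and KDM6B. KDM6B removes the histone mark that EZH2 places. Splicing factors had 5 of 59 (8.47%, median 10 exons), with 2 called exons each in PRPF8 and SF3B1. RNA helicases had 3 of 53 (5.66%, median 17 exons). Cohesin and condensin genes had 1 of 17 (5.88%, median 28 exons), the cohesin loader NIPBL. Of 11 PRC2 genes, with a median of 15 exons, EZH1, the paralog of EZH2, was the single host (9.09%). Its called exon was number 13 of 21, 92 bp wide and wholly coding, at chr17:40861864-40861955 on the minus strand, and it was on the U87MG list alone. EZH2 had no exon on the U87MG list.

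Protein turnover and traffic were represented as well. Of 288 genes that fit the symbol pattern for ubiquitin ligases (median 8 exons), 14 were hosts (4.86%). UBR4 led these 14 with 4 exons, HUWE1 and RNF213 had 3, and FBXO11 and HERC1, among others, had 2. The pattern leaves out ligases with other symbols, such as the hosts MYCBP2, with 5 called exons, and TRAF7. Deubiquitinases had 5 of 77 (6.49%, median 11 exons), led by USP24 with 2 exons. Sorting proteins of the VPS and SNX groups had 6 of 65 (9.23%, median 13 exons), among them VPS13C and SNX27. Receptor phosphatases had 2 of 20 (10.0%, median 30 exons). Integrins had 2 of 30 (6.67%, median 28 exons), the subunits ITGAV and ITGB1.

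Besides the myosins and laminins, 3 families stood under the 2.73% of all protein-coding genes. Zinc finger factors, with a median of 5 exons, had 7 hosts of 586 (1.19%), of which ZNF638 had 2 exons. Genes with the symbols of translation factors and ribosomal proteins (EIF, RPL and RPS), with a median of 6 exons, had 4 of 155 (2.58%). These were EIF2AK1, EIF3A, EIF4G2 and RPL7L1, which were grouped by symbol and not by function. The transporter families, with a median of 11 exons, had 10 of 507 (1.97%), with 2 exons each in ABCA5 and ATP2C1. The ubiquitin ligases, with a median of 8 exons, and the splicing factors, with a median of 10, stood above it. The part of gene size in these shares was not tested.

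The authors' list of retained introns in U87MG, introns near the small RNA exons that stayed in polyadenylated RNA, was set beside the exons. The labels name that list in the description of a siEZH2 library. Whether the same introns were retained in untreated U87MG cells was not tested. Since every intron on that list borders a U87MG exon by construction, the adjacency itself is no result. It picks out 40 of the 669 exons (5.98%, 4.42 to 8.04), which border 42 distinct introns of 38 genes. The intron followed the exon in 20 pairs and preceded it in 23. These exons had a median width of 192 bp, 30 of the 40 were wholly coding, 23 were shared with T98G (57.5%, 42.2 to 71.5) and 4 held the 6-base motif. That last share, 10.0%, is close to the 10.8% of the whole list.

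The highest deposited scores belonged to introns of MICAL3, an actin-oxidising enzyme (2.68), DOCK1 (2.61), LRIG2, a membrane protein of growth factor signalling (2.54), THOC2, a subunit of the mRNA export complex TREX (2.44), and FBXW7, a tumour suppressor that targets proteins to the proteasome (2.25). The scale of the score is not stated by the authors, so it ranks introns within this list only. Called exons of 3 genes, DOCK1, MICAL3 and WDR34, lay between 2 listed introns. DOCK1 exon 2, whose sequence is given above, had a listed intron of 7.17 kb after it (score 2.61) and one of 159 kb before it (score 2.19). MICAL3 exon 16 of 32 lay between introns with scores of 2.68 and 1.84. Motif exons in this set included those of DOCK1, DOCK5 and HEATR5B.

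The authors' deposited table lists genes of U87MG that changed under siEZH2 at the threshold its name gives, an adjusted p of 0.05. The authors' deposited table has no row for EZH2, so the depletion could not be checked from it, and the treatment label of 1 of the 2 siEZH2 libraries reads EZH3. The direction, siEZH2 over siGFP, was taken from the order of names in the title of the table. In bulk RNA, less RNA per cell and fewer cells of a kind cannot be told apart.

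Of the 596 host symbols, 70 were in the authors' deposited table (11.7%, 9.4 to 14.6), against 6.62% of all annotated protein-coding genes, a background that includes unexpressed genes. Of these 70 in the authors' deposited table, 53 were lower and 17 higher under siEZH2, beside 50.7% lower and 49.3% higher over the whole table. The direction was then read by the number of called exons, in groups of unequal size. Among hosts with 1 called exon, 38 of 54 were lower in the authors' deposited table (70.4%, 57.2 to 80.9), with a median log2 fold change of -0.68. Among those with 2 called exons, 11 of 12 were lower in the authors' deposited table, with a median of -0.74. All 4 hosts with 3 or more called exons were lower in the authors' deposited table, with a median of -1.02: MYCBP2 (-1.13), UBR4 (-1.05), DYNC1H1 (-0.98) and HUWE1 (-0.96). CIT, a kinase of cytokinesis, was the only host with several exons that was higher in the authors' deposited table, at a log2 fold change of 1.20.

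**Figure D5:**
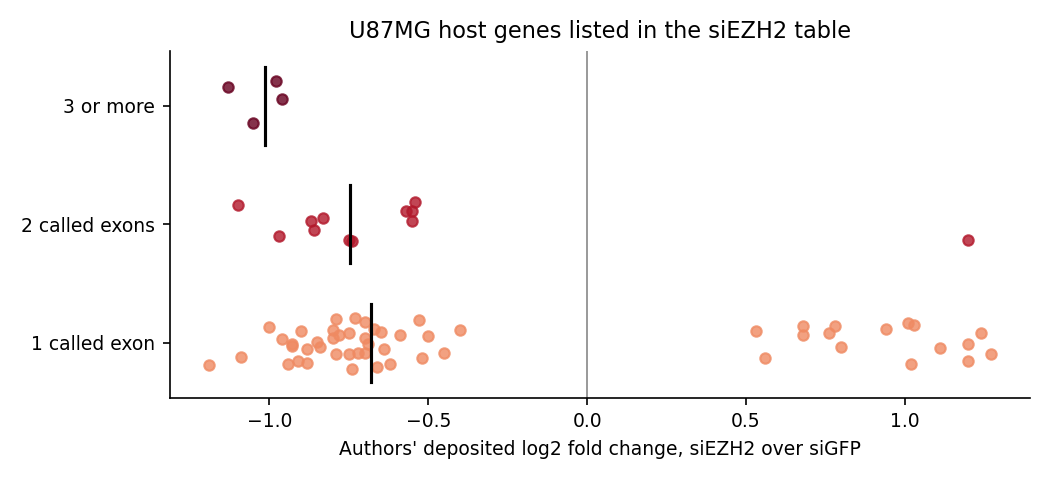
Points are the 70 U87MG host genes in the authors' deposited table, placed by log2 fold change of siEZH2 over siGFP (horizontal axis) and grouped by the number of called exons (vertical axis, with vertical scatter for legibility); black bars are medians. The medians are -0.68, -0.74 and -1.02, and all points of the group with 3 or more exons lie to the left of 0.

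Gene size moved with this direction. In the authors' deposited table, hosts with 1 to 10 exons were lower in 42.9% of 7 genes, and other genes of that size in 42.4% of 667. At 11 to 20 exons the shares in the authors' deposited table were 57.9% of 19 hosts and 54.4% of 362 others. At 21 to 40 exons they were 85.7% of 28 hosts and 60.5% of 147 others in the authors' deposited table. At 41 or more exons they were 93.8% of 16 hosts and 74.2% of 31 others in the authors' deposited table. The share of lower genes thus rose with exon number in hosts and in the other genes alike, and the part of gene size in the host values was not tested. Hosts with an exon shared with T98G were lower in 39 of 47 cases in the authors' deposited table (83%, 69.9 to 91.1), and the other hosts in 14 of 23 (60.9%, 40.8 to 77.8).

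The lowest hosts in the authors' deposited table were BTAF1, a remodeller that removes TBP from DNA (log2 fold change -1.19), MYCBP2 (-1.13), PANK3 (-1.10), AMOTL2, a scaffold of the Hippo pathway (-1.09), and UBR4 (-1.05). REV3L, the catalytic subunit of a translesion polymerase (-1.0), DYNC1H1 (-0.98), ASCC3, a helicase that acts on stalled ribosomes (-0.97), HUWE1 (-0.96) and SLC4A7, a bicarbonate transporter (-0.96), followed in the authors' deposited table. The highest hosts in the authors' deposited table were IGSF3 (1.27), MCTP1 (1.24), CIT (1.20), VCAN, a matrix proteoglycan (1.20), and F3, the tissue factor that starts coagulation (1.20). ARNTL2, a clock transcription factor (1.11), KRT79, a keratin (1.03), C14orf132 (1.02), ARHGAP11B (1.01) and LPCAT4, a lipid enzyme (0.94), came next in the authors' deposited table. The authors' deposited table gives no errors for these values. With an absolute log2 fold change of at least 1, 9 of 14 hosts were higher in the authors' deposited table (64.3%), beside 73.9% of all such rows.

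The list of full-length RNA targets in T98G was made by the authors from other libraries of the study. The labels name it in the description of the library titled EZH2_iCLIP, of which there is 1. T98G libraries titled lRNA_ezh2, lRNA_igg2 and lrna number 2 each. The full-length list held 86 of the 596 host symbols (14.4%, 11.8 to 17.5), and 85 of its 824 rows (10.3%) carried a host symbol. The background was 4.48% of annotated protein-coding genes. Among hosts with several exons it held 19 of 69 (27.5%, 18.4 to 39.0). T98G hosts were in it at 10.3% of 2046 symbols (9.02 to 11.7). Of the 16 U87MG hosts both in this list and in the authors' deposited table, all 16 were lower under siEZH2 (80.6% to 100%). Of these 16, the authors' deposited table gave the lowest log2 fold changes for AMOTL2 (-1.09), UBR4 (-1.05), DYNC1H1 (-0.98) and HUWE1 (-0.96), and the least low for PRKDC, the DNA-dependent protein kinase (-0.57). These hosts ranged from AMOTL2 with 10 exons to UBR4 with 106. As given above, genes with 41 or more exons were lower in 93.8% of hosts and 74.2% of the others. The share lower among all full-length targets was not computed, and the part of gene size in the 16 of 16 was not tested.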

How the data were processed

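Small RNA libraries were described through lists, not reads. Per the labels' protocols, the authors removed adapters (cutadapt), mapped the reads to hg19 (BWA), obtained counts per exon (bedtools), tested exons with DESeq2 and found peaks with pyicoclip. CASAVA 1.8 is named in the submitters' processing notes. The thresholds and the exon annotation are not given in the sources used here. The exon lists have no unit of abundance: the deposited score of the U87MG, K562 and full-length lists is the number of names joined in a row, and that of the T98G list a distance between peak and exon. The sign of that distance was settled in earlier work on these lists. The deposited score of the retained introns is of unstated scale. The siEZH2 values are the authors' log2 fold changes from DESeq2, per the labels' protocols, after alignment with Tophat and without strand. Columns that give values of a single library numbered 0, so no test was made.

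Names were split at semicolons and a gene counted once per exon. Rows were matched by strand and both ends to GENCODE release 44 on GRCh37, with coordinates printed 1-based. An overlap needed 1 shared base on the same strand. Place in a transcript came from the longest coding transcript that holds the exon. The exon number of a row is that of the canonical exon with the largest overlap, so its ends can differ from those of that exon. Sequences were read with pysam 0.24.0 and shares computed with Python 3.11.15 and SciPy 1.17.1. The counting scripts were tested on simulated data. The rule for named genes took those with 3 or more exons, the extremes of width and of log2 fold change, the top intron scores, the longest motif matches, several-exon genes called in all lines, and up to 6 members of a family. GFPT1, MICAL2, NASP and THADA as consecutive exons, EZH1, the genes without T98G exons and the copies were named after their values were seen. The members, gene lists, motif and window were chosen with earlier results of these data known. Some genes and 1 sequence that these rules would name are not reported here.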

Additional observations from a re-analysis of the deposited data

How the results depend on the processing

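Of 23 alternatives to 13 results, 16 left a share or median within its 95% interval, or a count of genes within 1.5 times, and 7 did not. Some of the 16 had no room to differ. All shared exons had identical ends, so stricter overlap rules gave the same 65% for T98G and 11.8% for K562. The listed introns border the exons by construction, and 5.98% of exons were beside one by either rule. The median width of 166 bp became 179 bp over rows with 1 joined name, 155.5 bp over rows equal to an annotated exon and 154 bp without exons over 1000 bp. Coding exons fell from 93.1% to 66.4% when every base had to be coding. With AGATC in place of AGATCG, 41% of exons held the motif. With starts 9 to 17 bases after the peak, the AGAT share was 36.3%. At an absolute log2 fold change of at least 1, 64.3% of hosts were higher in the authors' deposited table, against 24.3% without that limit, on 14 genes in place of 70. Several-exon genes numbered 67 by the first name of each row, 68 with exons within 1000 bp joined and 60 among rows equal to an annotated exon. No paired analysis was possible because the lists hold no values for single libraries, and for the same reason no replicate could be left out. Read depth is unknown, so an exon missing from a list was not called, which does not show that its RNA was absent.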

Other observations

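Small groups of host genes not described above were gathered after the members had been seen, so their counts are descriptions of chosen groups. Over all protein-coding genes 2.73% were hosts, and 11.2% of those with 21 to 40 exons. Of 13 genes of the microRNA machinery, with a median of 19 exons, 4 were hosts (30.8%): AGO2 and AGO3, which hold the mature microRNA, and the nucleases DICER1 and DROSHA, which cut its precursors. In T98G 8 of the 13 were hosts and in K562 0. The called exons were exon 16 of 19 in AGO3 (chr1:36505908-36506042), exon 15 of 27 in DICER1 (chr14:95574661-95574840), exon 30 of 36 in DROSHA (chr5:31421379-31421484) and exon 3 of 19 in AGO2. The DROSHA exon was on the U87MG list alone, and the other 3 were shared with T98G. In the authors' deposited table AGO2, DICER1 and DROSHA were lower under siEZH2, at log2 fold changes of -0.93, -0.93 and -0.74, beside 50.7% of its rows that were lower.

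Nonsense-mediated decay, which destroys mRNA with premature stop codons, had 4 hosts of 10 (40%; median 20.5 exons), with 2 called exons in the kinase SMG1 and 1 each in SMG5, UPF1 and UPF2. The kinases related to phosphoinositide 3-kinase had 5 hosts of 6 (83.3%): ATM, PRKDC and SMG1 with 2 exons each and ATR and MTOR with 1. These kinases have a median of 63 exons, and all 6 were T98G hosts. The mTOR complexes and their regulators had 6 hosts of 24 (25%; median 12.5 exons), namely MTOR, RICTOR, RPTOR, RRAGC, TSC2 and WDR59, the last with 2 exons. In the authors' deposited table MTOR was lower at -0.90 and PRKDC at -0.57.

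Aminoacyl-tRNA synthetases, which load tRNAs with amino acids, had 6 hosts of 37 (16.2%; median 16 exons), with 2 exons in GARS. Coat proteins of vesicles between the endoplasmic reticulum and the Golgi had 4 of 19 (21.1%; median 22 exons): COPA with 2 exons, SEC24C, SEC31A and SEC31B. Growth factor and cytokine receptors had 4 of 17 (23.5%; median 21 exons), with 2 exons in IL6ST and 1 each in FGFR1, MET and PDGFRB. The MET exon (chr7:116411552-116411708, exon 13 of 21) was shared with T98G, and the PDGFRB exon (chr5:149509320-149509531, exon 10 of 23) was on the U87MG list alone.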
